A study of Homo sapiens with 8 samples.

Results

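HepG2 cells, a human hepatocellular carcinoma line, were compared after 24 h and after 2 h in serum-free medium, a comparison that uses 4 of the 8 arrays of a quercetin time course. The 4 arrays were chosen by their labels: control and quercetin at 24 h, and control and quercetin at 2 h. Cells of the control arm stood in serum-free medium alone, and those of the quercetin arm in the same medium with 3 µM quercetin, a plant flavonol. All cells, those of the 2 h arrays included, had already been starved of serum before the clock started, so no array shows cells with serum. By the labels, the times within each arm differ only in the hours elapsed, which in the quercetin arm were also hours with quercetin. A change seen in both arms cannot be told apart from the time the culture spent growing, the ageing of its medium, or the hour of harvest. The arrays also differed in their controls, as given below. There was 1 array for each treatment and time, and the labels name no separate cultures. The error below therefore starts from how far the arms differed over the 4 times, 2, 4, 12 and 24 h. That difference may be technical in part. Limma then drew the error towards that of all genes tested at a like signal level. Of its 21.1 degrees of freedom only 3 come from the gene itself, so it is mostly borrowed. No replicate of a condition stands behind any value.

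Serum carries insulin, insulin-like growth factors, other growth factors and lipoproteins. When growth factor signalling through AKT is low, FOXO transcription factors stay in the nucleus and switch on genes of quiescence, stress resistance and, in liver cells, glucose production. Growth factors also drive the G1/S transition through E2F, and ERK signalling is held in check by feedback genes that it induces itself.

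Values are log2 signals as deposited, and a change is the 24 h value minus the 2 h value on that scale, with treatment as a block, given with the standard error (SE) of the fit. A gene is said to have risen or fallen when limma called it at an adjusted p under 0.05 and the sign was the same in both arms. Each symbol was read by its brightest probe set, and levels of different genes are not compared, since probe sets differ in brightness.

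The arrays were not alike in their controls. The 2 h arrays read 18S ribosomal RNA at a mean of 8.57 without quercetin and 12.01 with it, and the 24 h arrays, at 9.82 and 9.16, lay between them. The control array at 2 h also fell in the group of low hybridisation spike-in signal, with both 12 h arrays. HepG2 hepatocyte markers were bright on all 8 arrays, with ALB at 14.91 to 15.12. Of the markers of other cells on the array, 6 of 14 leukocyte and 8 of 13 fibroblast and stellate genes lay above the filter. So did 4 of 11 endothelial and 6 of 12 other epithelial genes. The filter is the median over probe sets and not a detection call, so passing it does not show that a transcript was present. The summed leukocyte signal was 14.23 and 14.41 at 2 h and 14.35 and 14.27 at 24 h, and most of it came from LYZ, at 13.40 to 14.22 on the 8 arrays. For fibroblast and stellate markers the sums were 11.60 and 11.68 at 2 h against 11.56 and 11.45 at 24 h. Endothelial sums were 11.13 and 11.39 against 10.89 and 11.01, and other epithelial sums 12.26 and 12.49 against 12.06 and 12.16. Limma called none of the 6 leukocyte, 8 fibroblast or 11 hepatocyte markers tested, of which 0, 1 and 4 had an unadjusted p under 0.05. Of the endothelial markers 3 fell, and 1 of the other epithelial set. No endothelial marker was called without the quercetin array at 2 h or without the control array at 24 h, with 2 at an unadjusted p under 0.05 in each case. STAB2 was also not called after cyclic loess, quantile normalization or median centring, and KLK3 was not called without one or the other quercetin array. What the fall of TEK, LYVE1, STAB2 and KLK3 reflects was not tested.

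Of 13298 genes tested, 2301 rose from 2 to 24 h and 528 fell. That is 17.3% of tested genes rising and 3.97% falling, and the medians of all genes were 0.13 in the control and 0.08 in the quercetin arm. Rises made up 81.3% of the shared calls in the deposited values, 60.3% once cyclic loess was applied and 57.0% with quantile normalization. The median change of all genes was 0.09 as deposited, -0.02 with loess and -0.03 with quantile normalization. Without the quercetin array at 2 h, 761 rises and 191 falls were called, without the control array at 24 h 865 and 192, and without the quercetin array at 24 h 1315 and 259. Without the control array at 2 h the counts were 2288 and 488. The size of the change was mostly modest: 392 rises and 42 falls reached 1, and 17 rises and no fall reached 2. Leaving aside the test, both 24 h arrays lay above both 2 h arrays for 37.6% of tested genes and below both for 18.5%.

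**Figure D1:**
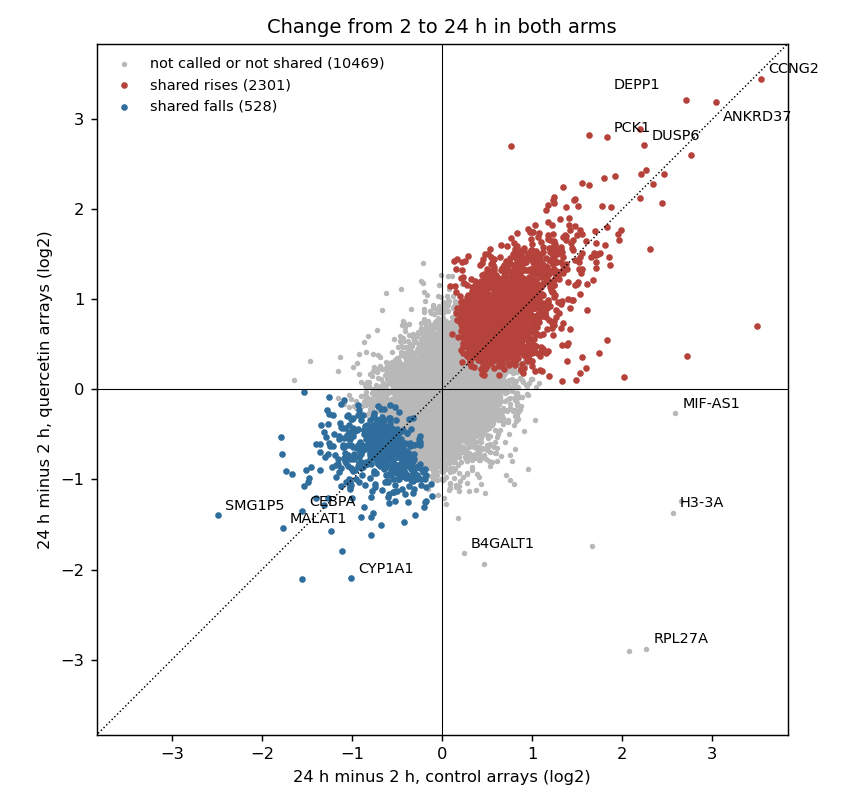
Change from 2 to 24 h of each of 13298 tested genes, with the control arm on the x axis and the quercetin arm on the y axis (both log2). Shared rises are red, shared falls blue and other genes grey. CCNG2, ANKRD37 and DEPP1 lie near the dotted line of equality, while RPL27A and H3-3A, which changed in opposite directions in the arms, lie far from it.

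The arms moved together across genes, with 71.9% of genes of the same sign and a Pearson correlation of 0.65 across genes, which are not independent replicates. The arms use different arrays, but both arms share the times, so the correlation describes the arrays only. For 213 genes the arms differed by 1 or more, with the control change larger for 142, and for 166 of these the signs were opposite. Leading among them were RPL27A (2.27 in control, -2.88 in quercetin), RPLP2 (2.08 and -2.91), H3-3A (2.56 and -1.37), ND6 (2.65 and -1.24) and PEG3-AS1 (1.67 and -1.74). All 5 were higher at 2 h in the quercetin array, which also had the higher 18S signal, RPL27A at 12.77 against 9.33. Whether they share a cause with the 18S difference was not tested, and none of these 5 was called.

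The change differed with signal level. In 5 equal groups of genes ordered by mean level, from dim to bright, the median change was -0.08, -0.03, 0.12, 0.25 and 0.21, and after cyclic loess all 5 medians lay between -0.06 and 0.03. Rises numbered 119 in the dimmest group and 682 in the brightest, and falls 124 and 98. The SD of signals within an array was 1.86 and 1.79 at 2 h and 1.95 and 1.90 at 24 h. Lists are therefore described by their median minus the median of all genes tested, called the relative median below, and by their counts after loess, where 10.9% of all tested genes rose and 7.2% fell. Their counts in the deposited values are to be read beside the 17.3% of all tested genes that rose and the 3.97% that fell.

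**Figure D2:**
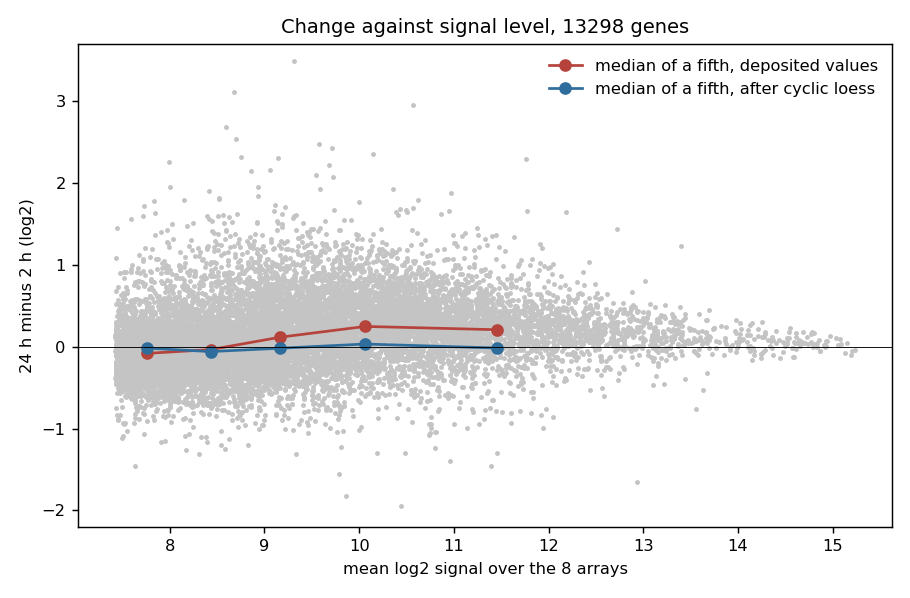
Change from 2 to 24 h (y axis, log2) against the mean log2 signal over 8 arrays (x axis) for 13298 tested genes in grey. Red points are the medians of 5 equal groups of genes in the deposited values, rising from -0.08 to 0.25 and 0.21, and blue points are the medians after cyclic loess, which stay near 0.

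The largest rise was that of CCNG2, cyclin G2, a FOXO target that opposes cell cycle entry. Its signal was 7.96 and 7.56 at 2 h in control and quercetin, and 11.49 and 11.01 at 24 h. Both 24 h arrays lay far above both 2 h arrays, a change of 3.49 ± 0.20 (SE), adjusted p = 1.02e-09, and all 5 of its probe sets had a positive change, though 1 of them was lower at 24 h in the control arm (-0.05). Between these times the means of the arms were 8.09 at 4 h and 10.16 at 12 h. DEPP1, a FOXO-regulated gene of the stress response, stood at 10.27 and 9.77 at 2 h and 12.97 and 12.98 at 24 h, a change of 2.96 ± 0.19. It stayed at 9.70 and 9.59 at 4 and 12 h, so its rise came after 12 h. The 250 bases before the start site of DEPP1 are shown because they hold the FOXO motif GTAAACA, in capitals, searched on both strands. They come from RefSeq (GRCh38.p14), chr10:44978810-44979059 on the minus strand, and the motif begins 180 bases before the start site.
DEPP1: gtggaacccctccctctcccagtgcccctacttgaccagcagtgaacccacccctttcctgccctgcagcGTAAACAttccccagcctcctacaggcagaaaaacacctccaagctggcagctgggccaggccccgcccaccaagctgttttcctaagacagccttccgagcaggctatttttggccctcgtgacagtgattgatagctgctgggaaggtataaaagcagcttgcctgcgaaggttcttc
The FOXO motif lay in 1 of 14 promoters of the 15 largest rises for which RefSeq gave one, in 2.98% of all 27305 promoters of this length, and in 2.12% of the promoters of tested genes. It lay in 1 of 15 promoters of the FOXO-linked list described below and in 0 of the 10 of its called members. A match is a description of these letters only.

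Further large rises included FAM13A (2.68 ± 0.21), MAFF (2.54 ± 0.22), a small MAF transcription factor of the stress response, and FILIP1L (2.43 ± 0.18). RSRP1 rose by 2.35 ± 0.18, LPAR6, a receptor for lysophosphatidic acid, by 2.31 ± 0.19, TMCC1 by 2.30 ± 0.21 and SAMTOR, which relays S-adenosylmethionine levels to mTORC1, by 2.26 ± 0.20. ARID4B rose by 2.23 ± 0.24, YPEL2 by 2.16 ± 0.18 and CITED2, a brake on HIF, by 2.14 ± 0.22. All 15 of the largest rises were called in each of the alternatives run for them, and for 14 of 15 the 12 h value was above the 4 h value in both arms. The exception was DEPP1. For 9 of 15 every probe set of the symbol had a positive change. TMCC1 had 5 positive and 2 negative probe sets, and ARID4B had 2 of each.

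FOXO-linked starvation and quiescence genes had a relative median of 0.46, and 9 of 17 tested members rose while 1 fell. That is 52.9% and 5.88%, against 17.3% and 3.97% of all tested genes. Beside CCNG2 and CITED2, BCL6, a transcriptional repressor, went from 10.42 and 10.34 to 12.40 and 12.11, a rise of 1.88 ± 0.15. SESN1, a sestrin that damps mTORC1, rose by 1.19 ± 0.19. ARRDC4, a regulator of glucose uptake that responds to MondoA, fell by 1.26 ± 0.21 (9.17 and 8.69 at 2 h, 7.68 and 7.66 at 24 h), with most of the fall before 4 h, where its mean was 8.0. Against 4 h in place of 2 h its change was -0.33 and not called. FOXO1 (0.51) and TXNIP (0.56) did not pass. After cyclic loess the counts were 8 rises and 2 falls.

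Fasting genes of liver glucose metabolism were mixed. PCK1, the rate-limiting enzyme of gluconeogenesis, stood at 8.69 and 7.42 at 2 h, which differ by over 1, and at 10.52 and 10.21 at 24 h. Its quercetin value at 2 h lay just below the filter of 7.43. Both 24 h arrays lay above both 2 h arrays, a rise of 2.31 ± 0.24, adjusted p = 1.38e-06. PPARGC1A, a coactivator of that programme, rose by 1.30 ± 0.21 and GOT1, which feeds aspartate into it, by 1.04 ± 0.16. These 3 of 10 tested members rose, none fell, and the other 7 did not pass, among them G6PC1 (0.07), the last enzyme of glucose release, and IGFBP1 (0.29). Rises were 30% of the list, against 17.3% of all tested genes. The relative median was 0.08, and after loess 3 rose and 2 fell.

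Genes of oxygen sensing and glycolysis gave 18 rises of 34 tested members and no fall. The relative median was 0.47, with 15 rises after cyclic loess. HIF is marked for destruction by prolyl hydroxylases when oxygen is present. Many of its targets, among them ANKRD37, are switched on when it is stable. ANKRD37 stood at 7.22 and 6.94 at 2 h and 10.25 and 10.14 at 24 h, a rise of 3.12 ± 0.20. Its 250 bases before the start site (RefSeq, GRCh38.p14, chr4:185396591-185396840, plus strand) are shown because they hold the HIF core ACGTGC 2 times, in capitals, searched on both strands, beginning 161 and 143 bases before the start. The HIF core can overlap the E-box CACGTG.
ANKRD37: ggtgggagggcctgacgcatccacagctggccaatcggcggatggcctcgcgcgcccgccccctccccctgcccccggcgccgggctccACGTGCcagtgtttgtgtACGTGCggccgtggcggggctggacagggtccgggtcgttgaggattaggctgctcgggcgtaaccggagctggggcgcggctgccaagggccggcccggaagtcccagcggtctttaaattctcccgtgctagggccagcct
The core lay in 10 of 30 promoters of the list, in 6 of the 14 of its called members, in 6.99% of the promoters of tested genes and in 5.85% of all. KDM3A, a histone demethylase, rose by 1.92 ± 0.20, PFKFB3, which drives glycolysis through an allosteric sugar phosphate, by 1.95 ± 0.29, INSIG2 by 1.80 ± 0.17 and MXI1, a MYC antagonist, by 1.64 ± 0.16. Of the glycolytic enzymes HK2, a hexokinase, rose by 1.37 ± 0.23, while LDHA (0.06) and PGK1 (0.24) did not pass. By arm the relative median was 0.10 for control and 0.59 for quercetin, a difference that was not tested. The quercetin array was the lower one at 2 h for ANKRD37, PFKFB3 and KDM3A, in the pair that differed in 18S. The list counted 12 rises without the quercetin array at 2 h and 12 without the quercetin array at 24 h.

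Of the growth factor response lists, the ERK feedback and immediate early genes were among those with the highest medians. YAP and serum response targets were not, with a relative median of -0.14. Of 13 ERK feedback genes tested, 10 rose and none fell, with a relative median of 0.74. DUSP6, the phosphatase that switches ERK off, stood at 8.99 and 8.88 at 2 h and 11.23 and 11.59 at 24 h, a rise of 2.48 ± 0.19. DUSP1 rose by 1.39 ± 0.17 and SPRY1, a sprouty inhibitor of receptor signalling, by 1.25 ± 0.20. Their means at 12 h were 9.31 for DUSP6, 10.83 for DUSP1 and 9.80 for SPRY1, so DUSP6 and DUSP1 lay near their 2 h values there. After cyclic loess the count was 10 rises.

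Of 21 tested members of the immediate early list, most but not all transcription factors, 11 rose and none fell, with a relative median of 0.43. BTG1 and IER3 are members that are not transcription factors. EGR1 stood at 11.86 and 11.47 at 2 h and 13.39 and 13.24 at 24 h, a rise of 1.65 ± 0.13, BTG1 rose by 1.66 ± 0.18, IER3 by 1.65 ± 0.18 and FOSL2 by 1.52 ± 0.20. With quantile normalization FOSL2 changed by 0.23 and was not called. Its probe sets disagreed: the one used had a mean of 8.24, while another at 8.23 changed by 0.26. Those at 8.20, 8.01 and 7.56 changed by 0.87, -0.25 and 1.33. FOS rose by 0.91 ± 0.21 (7.29 and 7.42 at 2 h, 8.61 and 7.91 at 24 h). Both 2 h values of FOS lay below the filter of 7.43. Without the control array at 24 h FOS changed by 0.53 and was not called, and without the control array at 2 h by 0.73, also not called. MYC (0.39) and NR4A1 (0.34) did not pass. The list counted 6 rises without the quercetin array at 2 h, 4 without the control array at 24 h and 7 after loess.

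Circadian clock genes gave 6 rises of 17 tested, with a relative median of 0.37 and no fall. RORA, an activator of BMAL1 transcription, stood at 8.51 and 8.12 at 2 h and 10.38 and 10.14 at 24 h, a rise of 1.95 ± 0.18. BHLHE40 rose by 1.67 ± 0.22 and NFIL3, a repressor, by 1.36 ± 0.15. PER2 (0.47) and BMAL1 (0.14) did not pass. The 4 times were not chosen to sample a day, so no rhythm can be read from them. The list counted 3 rises without the quercetin array at 2 h, 4 without one or the other 24 h array and 5 after loess.

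Of 10 NF-kappaB targets tested, 5 rose and none fell, with a relative median of 0.37. CCL20, a chemokine, stood at 12.82 and 12.23 at 2 h and 13.99 and 13.95 at 24 h, a rise of 1.44 ± 0.14. Without the control array at 24 h 1 rise was called and without the quercetin array at 2 h 2 were, and after loess 5 rose. Of 13 acute phase genes 1 rose (7.69%, against 17.3% of all tested genes). It was the transcription factor CEBPD, which rose by 1.77 ± 0.18, while FGB (0.09) and SERPINA3 (-0.05) did not pass. The relative median was -0.04, and after loess 1 rose and 1 fell.

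Secreted plasma proteins gave 6 rises of 39 tested, no fall and a relative median of -0.001, with 3 rises without one or the other 2 h array, 1 without the control array at 24 h and 4 without the quercetin array at 24 h. The rises are 15.4% of the list, against 17.3% of all tested genes, and after loess 3 rose and 2 fell. The largest was that of antithrombin, SERPINC1, at 0.98 ± 0.15. ALB (0.03) and APOB (-0.03) did not pass, which does not show that they did not change. Transcription factors of the hepatocyte moved both ways. CEBPA, which sustains hepatocyte genes and restrains division, went from 12.13 and 12.03 at 2 h to 10.58 and 10.67 at 24 h. Its means in between were 11.67 at 4 h, then 11.21 at 12 h. It fell by 1.45 ± 0.15, stepwise at the 4 times, with adjusted p = 1.38e-06. NR0B2, the bile acid-induced repressor, rose by 1.32 ± 0.18 (9.66 and 9.82 at 2 h, 11.13 and 10.98 at 24 h). The list gave 4 rises and 2 falls of 14 (28.6% and 14.3%, against 17.3% and 3.97% of all tested genes), with a relative median of 0.09. It gave 2 rises and 3 falls after loess, and 1 rise and 1 fall without the quercetin array at 2 h or without the control array at 24 h.

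CYP1A1, an enzyme induced through the aryl hydrocarbon receptor, stood at 9.52 and 10.90 at 2 h, and at 8.51 and 8.80 at 24 h. Both 24 h arrays lay below both 2 h arrays, and it fell by 1.55 ± 0.27, adjusted p = 0.000407. The quercetin array at 2 h was the higher of the pair that differed in 18S. The arms also parted at 12 h (8.58 without and 10.44 with quercetin) but less at 4 h (10.68 and 10.91). The fall was not called with robust moderation. ABCB4, the phospholipid flippase, rose by 1.23 ± 0.20. The list of bile acid and drug metabolism genes gave 2 rises and 2 falls of 17, or 11.8% each. Of all tested genes 17.3% rose and 3.97% fell. The relative median of the list was -0.11, with 2 rises and 4 falls after loess.

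Of 42 tested genes of G1/S and replication, 11 fell and none rose, with a relative median of -0.43. After cyclic loess 26 fell. GINS4, a subunit of the replicative helicase, stood at 9.99 and 9.98 at 2 h and at 8.97 and 8.92 at 24 h, a fall of 1.04 ± 0.17. Its mean was 9.80 at 4 h and 10.33 at 12 h, so the drop came after 12 h. UHRF1, which takes part in copying DNA methylation at replication forks, stood at 11.80 and 11.25 at 2 h. At 24 h it stood at 10.69 and 10.82, a fall of 0.77 ± 0.16. Its 250 bases before the start site (RefSeq, GRCh38.p14, chr19:4909251-4909500, plus strand) are shown because they hold the E2F motif TTTNNCGC 2 times, in capitals, searched on both strands, beginning 112 and 14 bases before the start.
UHRF1: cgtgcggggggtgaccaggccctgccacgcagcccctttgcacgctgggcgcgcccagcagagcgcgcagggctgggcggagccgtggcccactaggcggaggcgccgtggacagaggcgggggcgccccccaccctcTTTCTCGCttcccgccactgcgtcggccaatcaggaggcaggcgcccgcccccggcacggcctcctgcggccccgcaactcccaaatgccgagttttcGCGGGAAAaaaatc
The motif lay in 17 of 36 promoters of the list, in 4 of the 9 of its called members and in 8.27% of the promoters of tested genes. As for DEPP1, a match is a description of letters only. Several calls rested on single arrays. Without the control array at 2 h UHRF1 changed by -0.49 and was not called, and the list counted 2 falls. UHRF1 was also not called without the control array at 24 h. It counted 1 without the control array at 24 h, 5 without the quercetin array at 24 h and 7 without the quercetin array at 2 h. CCND1 (-0.15) and CCNE1 (0.05) did not pass.

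Of 44 mitotic genes, 11 rose and none fell, with a relative median of 0.22. That is 25% of a list in which 38 genes lie in the brighter 2 of the 5 level groups, where 27.5% and 25.6% of all genes rose. After loess 5 rose and 1 fell. CENPE, a kinetochore motor, rose by 1.09 ± 0.18 and ASPM, a spindle pole protein, by 1.05 ± 0.17. The median change of the list was -0.23 from 2 to 4 h, 0.48 from 4 to 12 h and 0.06 from 12 to 24 h. Without the quercetin array at 2 h 4 rises were called, without the control array at 24 h 3 and without the quercetin array at 24 h 4.

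**Figure D3:**
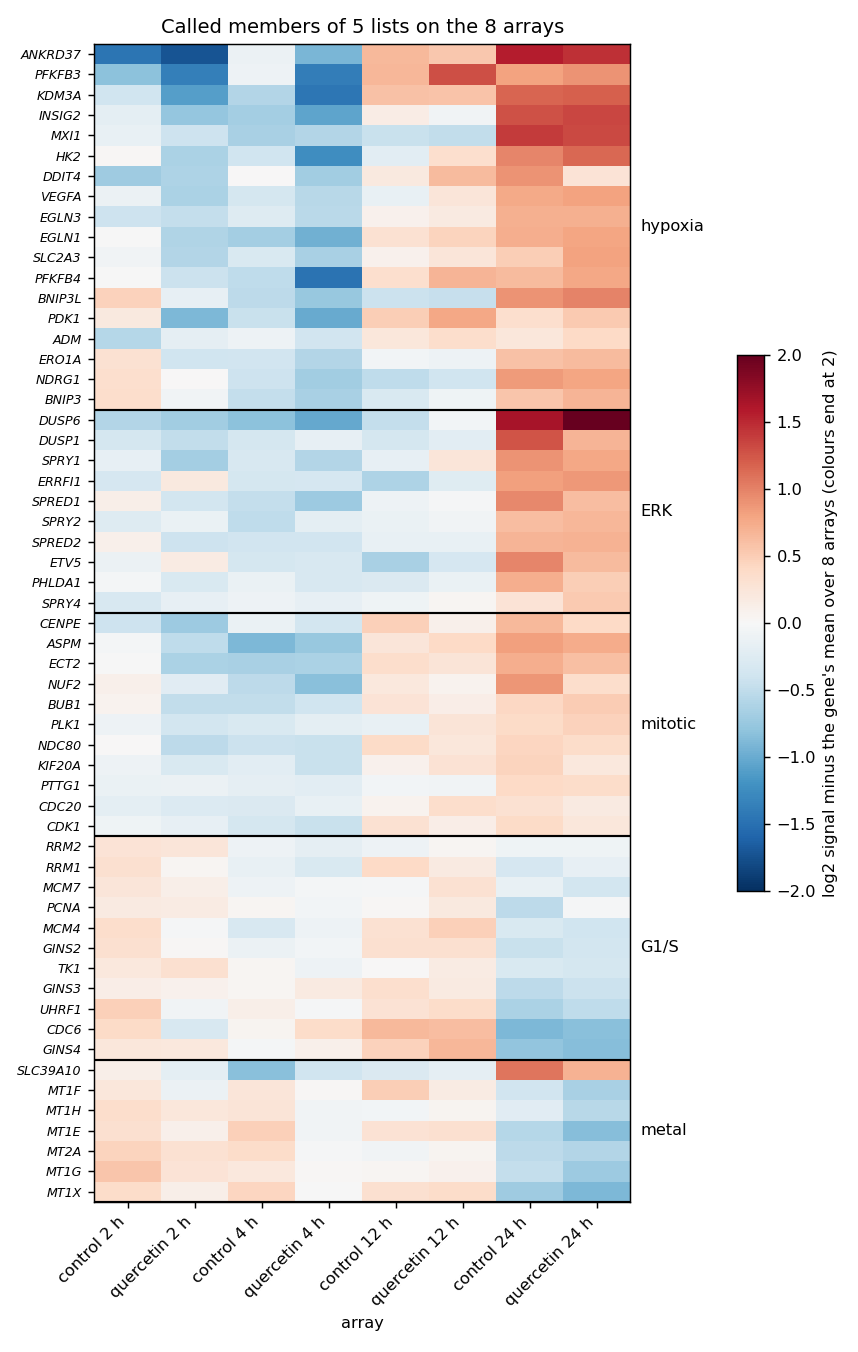
Signal of the called members of 5 lists (57 genes, rows) on the 8 arrays (columns, in order of time), as the log2 signal minus the mean of the gene over the 8 arrays, with colours ending at 2. Rising members, such as ANKRD37 and DUSP6, are blue at 2 h and red at 24 h, and the replication and metallothionein rows turn blue at 24 h.

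**Figure D4:**
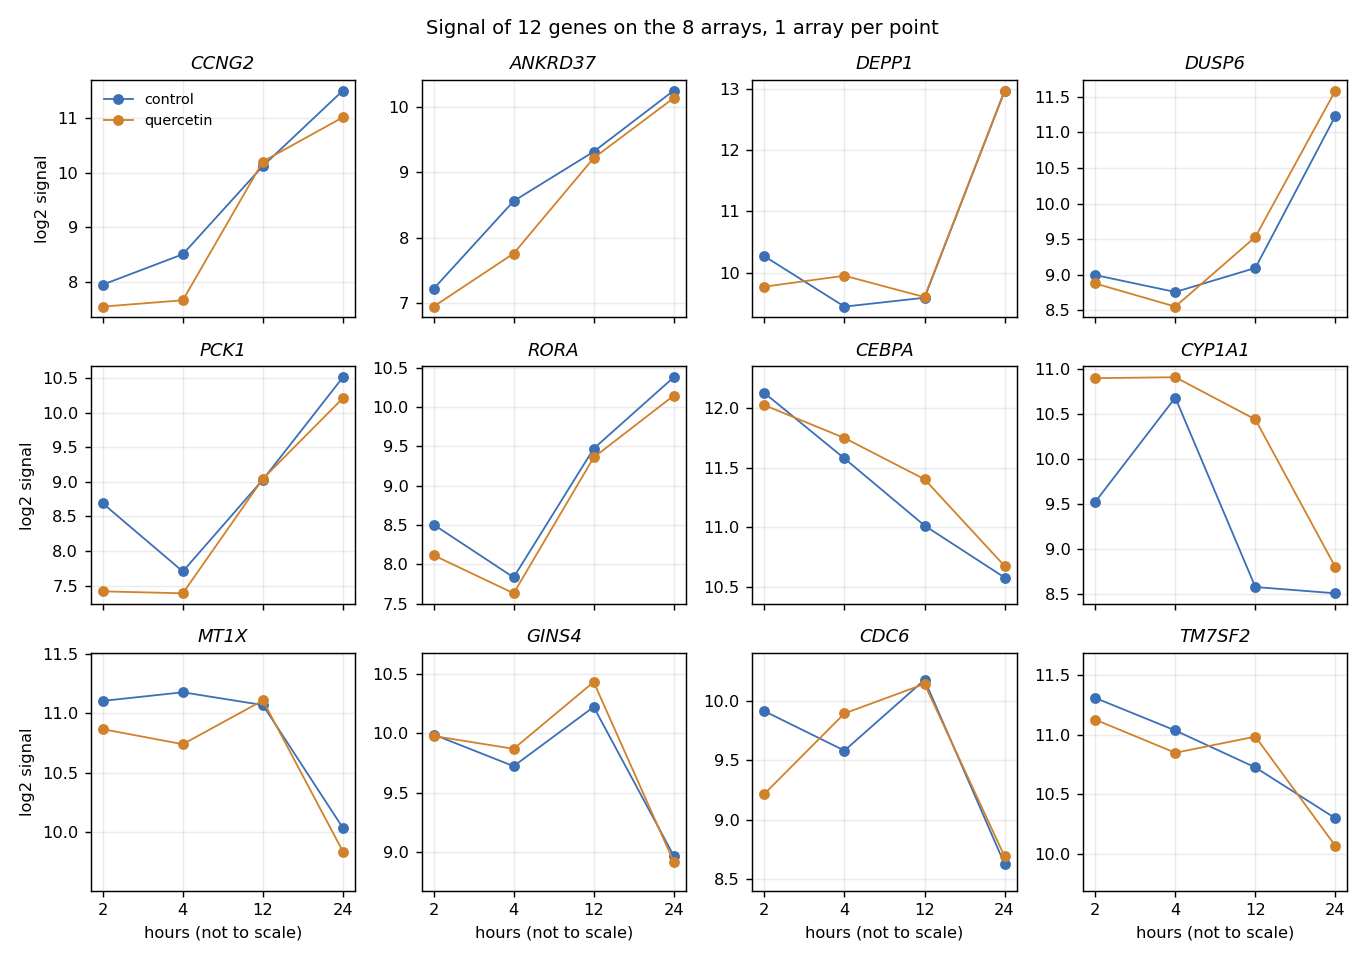
Signal (y axis, log2) of 12 genes at 2, 4, 12 and 24 h (x axis, not to scale) in the control (blue) and quercetin (orange) arms, with 1 array per point. CCNG2 is higher from 12 h and DEPP1 at 24 h, CEBPA is lower at each later time, and GINS4 and MT1X are lowest at 24 h.

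Metallothioneins, small zinc- and copper-binding proteins, fell together. Of 8 tested genes of the list, which holds metallothioneins and zinc transporters, 6 fell and 1 rose, with a relative median of -0.89. MT1X stood at 11.11 and 10.87 at 2 h, with means of 10.96 at 4 h and 11.09 at 12 h, and at 10.04 and 9.84 at 24 h, a fall of 1.05 ± 0.16, adjusted p = 0.000107. MT1G fell by 1.02 ± 0.17, MT2A by 0.93 ± 0.15 and MT1E by 0.92 ± 0.17, and the zinc importer SLC39A10 rose by 0.93 ± 0.19. SLC39A10 was not called without the quercetin array at 2 h or without the control array at 24 h. The metallothioneins are near-identical copies read by probe sets that share sequence, so they are not independent, and none of the 6 falls remained when only gene-specific probe sets were used, since no gene-specific probe set of theirs passed the filter. MT1G has one, below the filter at a mean of 6.55, with a change of -0.43. Both promoters below, each 250 bases before the start site, are shown because metallothionein promoters are known for metal response elements. Their core, TGCACNC or TGCGCNC, searched on both strands, is in capitals: 4 times in MT1X (RefSeq, GRCh38.p14, chr16:56682220-56682469, plus strand) and 7 times in MT2A (chr16:56608334-56608583, plus strand).
MT1X: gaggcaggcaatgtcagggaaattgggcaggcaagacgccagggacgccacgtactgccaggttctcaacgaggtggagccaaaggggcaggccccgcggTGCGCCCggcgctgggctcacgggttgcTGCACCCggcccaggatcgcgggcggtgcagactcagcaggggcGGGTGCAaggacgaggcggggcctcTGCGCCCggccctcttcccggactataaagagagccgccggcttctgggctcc
MT2A: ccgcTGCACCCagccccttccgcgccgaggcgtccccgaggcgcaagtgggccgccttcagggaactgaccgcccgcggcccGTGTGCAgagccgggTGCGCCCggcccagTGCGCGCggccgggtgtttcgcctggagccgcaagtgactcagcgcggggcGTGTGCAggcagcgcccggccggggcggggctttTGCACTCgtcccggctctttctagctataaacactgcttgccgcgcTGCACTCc
This core is common: it lay in 32.1% of the promoters of tested genes, in 4 of 5 promoters of the list and in 3 of the 4 of its called members.

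Some lipid synthesis genes fell. Of 19 tested genes of cholesterol synthesis and uptake, 4 fell and none rose, with a relative median of -0.34 and 8 falls after cyclic loess. TM7SF2, a sterol reductase, stood at 11.31 and 11.13 at 2 h and 10.30 and 10.06 at 24 h, a fall of 1.04 ± 0.16. HMGCS1, the enzyme before HMG-CoA reductase, fell by 0.56 ± 0.16, but its 2 h values were 12.36 and 11.40 and its 24 h values 11.43 and 11.22, so the groups overlapped. It was not called without the control array at 24 h. Without the control array at 2 h its change was -0.20 and not called, and the list counted 1 fall and 4 rises. It counted 1 fall without the control array at 24 h and 2 without the quercetin array at 24 h. Of 14 fatty acid synthesis genes, 2 fell and none rose, with a relative median of -0.18 and 5 falls after loess. Without one or the other 24 h array limma called none of them (2 at an unadjusted p under 0.05 without the control array and 3 without the quercetin array), and without one or the other 2 h array 1 fell.

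Of 32 ATF4 and amino acid response genes, 12 rose and 1 fell, with a relative median of 0.25. That is 37.5% and 3.1%, against 17.3% and 3.97% of all tested genes. After loess 8 rose and 5 fell. STC2 rose by 1.67 ± 0.17 and SLC38A2, the starvation-induced neutral amino acid transporter, stood at 12.98 and 12.83 at 2 h and 14.16 and 14.11 at 24 h, a rise of 1.23 ± 0.10. TRIB3 (-0.16) and CHAC1 (-0.06), known ATF4 targets, did not pass. The list counted 4 rises without the quercetin array at 2 h and 5 without the control array at 24 h. Of 22 endoplasmic reticulum stress genes, 5 rose, led by DNAJB9 (1.29 ± 0.19) and HERPUD1 (1.22 ± 0.16), while HSPA5 (-0.02) did not pass, and 3 rose without the control array at 24 h. The 5 rises are 22.7% of the endoplasmic reticulum list, against 17.3% of all tested genes. The relative median was 0.05, and after loess 4 rose and 3 fell. DNAJB9 was not called against 4 h. Of 23 p53 targets, 7 rose and none fell, led by the phosphatase PPM1D (1.36 ± 0.19), with a relative median of 0.29, 3 rises without the quercetin array at 2 h and 4 without one or the other 24 h array. The 7 rises are 30.4% of the p53 list, against 17.3% of all tested genes. After loess 6 rose and 2 fell.

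NRF2 antioxidant genes, of which 21 were tested, gave 4 rises and 2 falls. Among them SRXN1, sulfiredoxin, stood at 11.30 and 11.85 at 2 h and 10.71 and 10.91 at 24 h, a fall of 0.76 ± 0.18. Without the quercetin array at 24 h it changed by -0.45 and was not called. The relative median of the list was 0.09, and the list counted 3 falls and no rise after loess and 1 rise and 3 falls after quantile normalization. No rise and 1 fall were called without the quercetin array at 2 h or without the control array at 24 h, 2 rises and 1 fall without the control array at 2 h, and 4 rises and no fall without the quercetin array at 24 h. Of 11 TGF-beta and BMP targets, 2 rose and 2 fell (18.2% each, against 17.3% and 3.97% of all tested genes), with a relative median of -0.10. After loess, and after quantile normalization, 3 fell and none rose. The rises, BAMBI and TGIF1, were each not called without the control array at 2 h, the quercetin array at 2 h or the control array at 24 h, and TGIF1 changed by -0.74 with gene-specific probe sets. HAMP, the iron hormone hepcidin, fell by 0.76 ± 0.13. IGFBP3, an IGF-binding protein, rose by 1.16 ± 0.19.

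**Figure D5:**
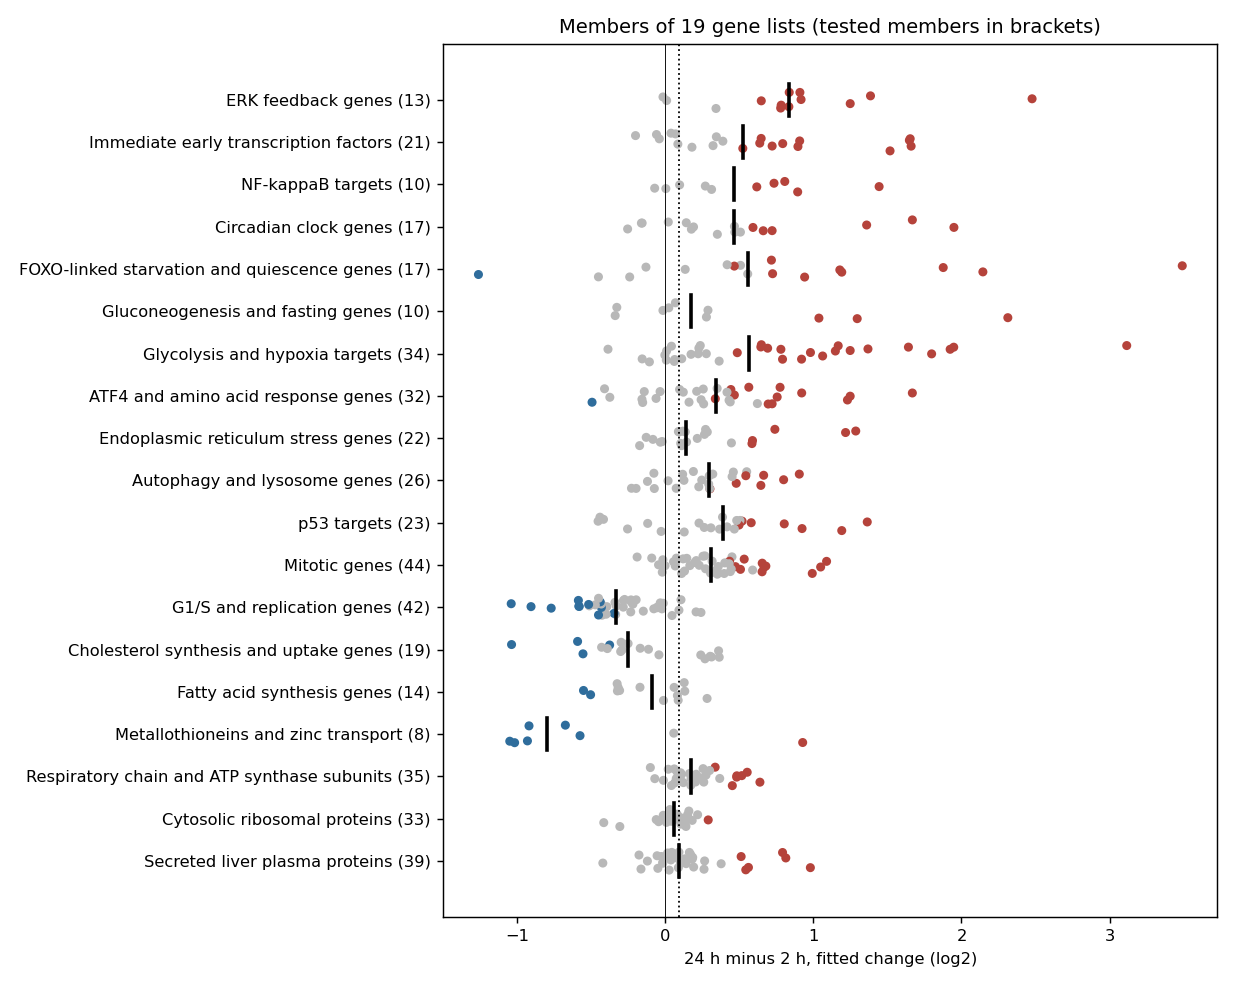
Fitted change from 2 to 24 h (x axis, log2) of the tested members of 19 gene lists, with rises in red, falls in blue, other members in grey and a bar at each list's median. The dotted line is the median of all genes, 0.09. ERK feedback genes have the rightmost median and metallothioneins the leftmost.

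Set beside the 17.3% of all tested genes that rose, lists of the general cell machinery lay on both sides. Ribosomal proteins gave 1 rise of 33 (3.03%), with a relative median of -0.04, and no rise and 1 fall after loess. Ribosome biogenesis genes gave 4 rises (11.4%) and 1 fall of 35, with a relative median of 0.07, 2 rises and 4 falls after loess, 1 rise without the quercetin array at 2 h or the control array at 24 h, and 2 without the quercetin array at 24 h. Respiratory chain and ATP synthase subunits gave 7 rises (20%) of 35, with a relative median of 0.08 and 2 rises after loess, and with 1 rise without the quercetin array at 2 h, 1 without the control array at 24 h and 3 without the quercetin array at 24 h. Of 39 RNA splicing genes, 13 rose (33.3%) and 1 fell, with a relative median of 0.13. The counts were 4 and 4 after cyclic loess, with 5 rises without one or the other quercetin array and 3 without the control array at 24 h. CLK1, a kinase of splicing factors, rose by 1.04 ± 0.19, while SRSF4 turned to -0.08 with the mean of its probe sets. Autophagy and lysosome genes gave 7 rises (26.9%) of 26 with a relative median of 0.20, 4 rises and 3 falls after loess, 1 rise without the quercetin array at 2 h and 4 without the control array at 2 h. Without the control array at 24 h limma called none, with 4 at an unadjusted p under 0.05.

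Probe sets differed among the largest falls. Of the shared falls, 19.9% were read by probe sets with a cross-hybridising (x) suffix, against 4.26% of the rises and 7.74% of tested genes. SMG1P5, a pseudogene of SMG1, stood at 11.44 and 10.91 at 2 h and 8.95 and 9.51 at 24 h, a fall of 1.94 ± 0.21. HINT3 fell by 1.83 ± 0.25, yet another of its 3 probe sets changed by 1.08. MALAT1, a nuclear RNA, stood at 12.95 and 13.66 at 2 h and 11.18 and 12.12 at 24 h, a fall of 1.66 ± 0.17 in its brightest probe set. Of its 12 probe sets 3 had positive changes, and the fall was not called with the mean of probe sets or with gene-specific ones. ATM (-1.30 ± 0.17) changed by 0.11 when only gene-specific probe sets were used, and ORAI2 (-1.30 ± 0.15) by 0.03. PTGER3, a prostaglandin receptor, fell by 1.46 ± 0.23 in an x probe set at a mean of 7.63, near the filter of 7.43. Another x probe set of PTGER3, at a mean of 7.62, changed by -0.23, and others had positive changes, up to 0.27. RBL1, a pocket protein, fell by 1.32 ± 0.22 and PCSK6 by 1.25 ± 0.22. Of the 15 largest falls, 9 were called in each alternative run for them, and 7 had negative changes in every probe set.

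The 4 and 12 h arrays do not enter the change itself, but they enter the error of the fit and so the calls. Shares of called genes at these times are therefore not independent of the calls, and only describe where changes lay. Of the rises, 77.7% were higher at 12 than at 4 h in both arms, against 38.8% of tested genes, and of the falls 56.3% were lower, against 29.6%. The 12 h arrays were low and the 4 h arrays high in 18S and spike-in signal, and the part of that in these shares was not tested. Among 392 rises of at least 1, 127 had reached 50% of their change at 12 h and 265 had not, and 31 of the 42 falls of that size had not.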

How the data were processed

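Total RNA of HepG2 cells was hybridised to Affymetrix 3' expression arrays, 1 array for each of control and quercetin at 2, 4, 12 and 24 h. The authors deposited log2 signals of 54675 probe sets in a single table. The submitters' processing notes name RMA, and no source used here gives its version or settings. Precision is limited by how few arrays there are.

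Among these, 62 are array controls, 41091 had 1 gene symbol in the platform annotation, 1801 had several and 11721 were not listed. Entrez identifiers served to update 41037 of the names. Each of 19775 symbols was read by its brightest probe set. Tests covered the 13298 whose mean exceeded 7.43, the median over probe sets, and 6477 dimmer ones were left out.

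The comparison was fitted in R 4.3.3 by limma 3.58.1 (functions lmFit and eBayes, trend on, with Benjamini-Hochberg adjustment over all genes tested and a threshold of 0.05) on all 8 arrays, with time as a factor and treatment as a block, which leaves 3 residual degrees of freedom. Moderation raised the total to 21.1 degrees of freedom by borrowing from all genes tested. The code was tested on simulated data. Gene lists were described by counts and medians and were not tested. The members and lists were chosen with earlier results of these data known. Genes named are the 15 largest rises and falls, up to 5 called members of each list with the largest change and up to 2 well-known members that did not pass; genes named for an arm difference, and single examples beyond these, were chosen after their values were seen. Motifs were also chosen with the values known, and were searched in the 250 bases before the RefSeq start sites.

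Alternatives varied the filter, the probe set, the scaling, the moderation, the arrays in the fit, the 18S signal or spike-in class as a term, the threshold and the reference time, and left out each of the 4 arrays at 2 and 24 h in turn; the 4 and 12 h arrays were left out as pairs.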

Additional observations from a re-analysis of the deposited data

Results flagged for a closer look

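For 6 lists the median change had opposite signs in the control and quercetin arms. Quercetin minus control, these medians differed by 0.12 for YAP and serum response targets, -0.38 for LXR targets, -0.19 for bile acid and drug metabolism genes, -0.0437 for interferon-stimulated genes, -0.55 for nuclear and snoRNA-host long noncoding RNAs and -0.18 for leukocyte markers. With 1 array per arm and time these differences were not tested.

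B4GALT1 and MIF-AS1 were called but had opposite signs in the arms. The quercetin change minus the control change was -2.06 for B4GALT1 (0.24 in control, -1.82 in quercetin) and -2.85 for MIF-AS1 (2.59 and -0.26). At 2 h both were higher in the quercetin array (10.87 against 9.77 for B4GALT1, 8.83 against 6.87 for MIF-AS1), which had the higher 18S signal. The part of that in the difference was not tested.

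Probe sets without a single symbol, which the comparison does not use, gave 225 shared rises and 378 shared falls of 4946 above the filter. Falls outnumbered rises there, while rises outnumbered falls among named genes. What these probe sets read was not tested.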

How the results depend on the processing

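The 2301 rises and 528 falls stayed within 1.5 times under gene-specific probe sets, no filter, each probe set tested singly, median centring, moderation, the 4-array fit, leaving out the 4 or 12 h pair, no treatment block, the spike-in class as a block and 18S as a covariate. Beyond that, the 75th percentile filter gave 315 falls, and the mean of probe sets 1237 rises and 288 falls. Cyclic loess gave 1451 rises and 957 falls, and quantile normalization 1176 and 886. A threshold of 0.01 gave 1318 and 202, and a change of at least 1 gave 392 and 42. Against 4 h in place of 2 h the counts were 4362 and 1254. Leaving out each of the 4 arrays at 2 and 24 h in turn gave 761 to 2288 rises and 191 to 488 falls. The 4-array fit has 1 residual degree of freedom. Leaving out a 2 h or 24 h array leaves a lone array at that time, assumed to vary like the others. With the spike-in class as a block the named genes' changes equal those without the control array at 2 h, since no other time but 12 h has an array of its class, though the counts of calls differ slightly. The causes of these shifts were not tested, except that a stricter threshold and a stricter filter admit fewer genes.

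Of 158 named genes, 64 were called in each alternative run for them, and 10 changed sign in at least 1. With gene-specific probe sets ATM changed by 0.11, ORAI2 by 0.0291, TGIF1 by -0.74, SDHC by -0.34, ATP5F1C by -0.27 and STAB2 by 0.18. With the mean of probe sets ATP6V1H changed by -0.11, BUB1 by -0.0037 and SRSF4 by -0.0752, and against 4 h ID2 changed by 0.0249. No paired analysis was possible because the replicate number is 1 for every array, so the numbers pair nothing beyond the treatment block that the model already holds, which pairs the times within an arm.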

Other observations

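Among all tested genes 17.3% rose and 3.97% fell. Of 16 heat shock genes, 5 (31.2%) rose, led by the HSP90 cofactor CHORDC1 (0.81 ± 0.16), and none fell, with a relative median of 0.16; limma called none without the quercetin array at 2 h, with 3 at an unadjusted p under 0.05, and 3 rose without one or the other 24 h array. After loess 3 rose and 1 fell. CHORDC1 was not called with the mean of probe sets. Of 21 YAP and serum response targets 3 (14.3%) rose, TEAD1 (0.77), CCN2 (0.71) and FHL2 (0.62), with a relative median of -0.14, and after cyclic loess 1 rose and 4 fell; limma called none without the quercetin array at 2 h or that at 24 h, with 5 and 4 at an unadjusted p under 0.05. CCN2, FHL2 and TEAD1 were each not called with quantile normalization. Of 14 genes of the insulin and IGF axis 2 (14.3%) rose, with a relative median of 0.14 and 1 rise after loess, and 1 rose without the quercetin array at 2 h or without one or the other 24 h array. Of 14 Wnt targets 3 (21.4%) rose, led by ZNRF3 (0.80 ± 0.17), with a relative median of -0.01; limma called none without the quercetin array at 2 h, with 4 at an unadjusted p under 0.05, and after cyclic loess 1 rose and 4 fell. Of 18 genes of fatty acid oxidation and PPARA, 2 rose, ANGPTL4 (0.85 ± 0.22) and the lipid droplet protein PLIN2 (0.80 ± 0.11), while CPT1A (-0.04) did not pass. After loess 2 rose and 3 fell. ANGPTL4, whose arms changed by 1.39 and 0.31, was at 0.41 and not called without the control array at 24 h, and at 0.57 and not called without the control array at 2 h. PLIN2 changed by 0.0114 and was not called with the mean of probe sets. Of 8 LXR targets 1 rose, and none after loess, where 1 fell. Limma called none without the quercetin array at 2 h, the control array at 24 h or the quercetin array at 24 h, with 0, 2 and 0 at an unadjusted p under 0.05. Of 14 interferon-stimulated genes 2 rose, IFIT1 and ISG15, and 1 fell. Neither was called without one or the other control array, and after loess and after quantile normalization no member rose and 1 fell. Of 7 long noncoding RNAs 2 rose, OIP5-AS1 and EPB41L4A-AS1, and 1, MALAT1, fell. Neither rise was called without the quercetin array at 2 h or the control array at 24 h, and after loess and after quantile normalization none rose and 2 fell.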
